A study of Saccharomyces cerevisiae with 70 samples.

Results

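The transcripts described here encode the proteins of the large (60S) subunit of the cytosolic ribosome of budding yeast. Members were the genes named RPL with a number, with or without A or B, and the stalk protein genes RPP0, RPP1A, RPP1B, RPP2A and RPP2B in the array annotation. RPP1, which has a similar symbol but encodes a protein of RNase P, was left out. Together 80 such genes were measured among 5577 named genes. Of the 3 array designs, that of peroxide I and that of menadione I each held 78 of them, and that of the other courses held all 80.

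The 60S subunit carries the catalytic centre that joins amino acids, the tunnel through which the new chain leaves, and the stalk that recruits translation factors. In yeast its proteins are made from some of the most heavily transcribed genes in the cell, mostly in pairs of near-identical copies called A and B. Their genes share promoter features and activators, such as Rap1, Fhl1 and Ifh1, and are known to be switched down together under many stresses and when growth slows.

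The study followed 4 cultures over time on 2-colour arrays. Peroxide I received 0.24 mM hydrogen peroxide and was sampled at 21 times from 0 to 275 min, on 23 arrays. Menadione I received 2 mM menadione, a quinone that makes superoxide inside cells, with 14 arrays from 0 to 210 min. A later pair of cultures of strain DBY8724, here called the second series, comprised peroxide II with 17 arrays up to 180 min and menadione II with 16 arrays up to 140 min. No dose is stated for that pair in the labels. Cells of peroxide I had been synchronised with alpha factor, and those of the second series had been released from a G1 arrest. The labels of menadione I state only the density of the culture. RNA of each time carried Cy5 and RNA of an asynchronous culture carried Cy3. No course without oxidant was among the samples, and the labels do not say when the oxidant was added. Changes over time therefore combine the oxidant, progress through the cell cycle and culture growth, which cannot be told apart.

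Each value below is a deposited log ratio, taken as log2, from which the median of all genes on the array was subtracted. A value of -1 thus means a level lower by 1 log2 unit than in the reference, relative to the typical gene. The sources used here state neither its base nor which dye was divided by which. The direction is likely sample over reference, since the median of 16 pheromone-response genes, which a mating-factor arrest raises, was 0.85 to 1.58 at 0 min in all 4 courses. Genes induced by oxidants, such as TRX2, also had higher values later, with list medians that peaked at 3.27 to 4.52. Arrays of the same table correlated at 0.12 or more, except in peroxide I, where a 63 min array and a 20 min array reached -0.30. At 20 and 63 min of peroxide I a hybridisation had been repeated, and the repeats correlated over all genes at only 0.13 and 0.41. At 49 and 170 min of peroxide I the only array was labelled a redo. Each course was 1 culture, so time points within a window stood in for replicates, and the p-values measure the spread between time points alone.

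The member median dropped in every course, and in both peroxide courses it later returned toward its start. The median member of peroxide I was at -0.29 at 0 min, 0.31 at 14 min and 0.34 at 30 min. It then dropped through -0.89 at 49 min to -2.20 at 77 min, its lowest value with the repeated arrays averaged. It was at -0.81 by 105 min and at -0.14 by 120 min. A second maximum of 0.48 at 155 min was followed by -0.62 at 170 min and 0.08 at 190 min, and the last value was -0.53 at 275 min. The 49 and 170 min values each came from a redo array alone. The repeated arrays of 63 min differed here, with a median of -2.82 for the first, below the 77 min value, and -1.10 for the redo.

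The median of peroxide II followed a shallower path. It was at -0.25 at 0 min and 0.17 at 14 min, reached -1.51 at 56 min, and stood at -1.05 at 77 min and -0.55 at 100 min. From 120 min on it lay between -0.22 and -0.09.

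In menadione I the median was at -0.38 at 0 min and 0.01 at 30 min, then at -1.12 at 55 min and -1.67 at 85 min. It was still at -1.62 at 120 min and -1.57 at 170 min, with higher values of -0.78 at 140 min and -0.92 at 210 min. The median of menadione II was at -0.20 at 0 min, -0.93 at 49 min and -1.31 at 85 min, and stayed between -1.23 and -1.03 from 100 to 140 min.

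Set against its mean over the first 21 min, the member median was first lower by 0.5 or more at 49 min in peroxide I, 42 min in peroxide II, 55 min in menadione I and 49 min in menadione II. The 49 min value of peroxide I came from a redo array, between medians of -0.25 at 40 min and -1.12 at 55 min. The last time at which it was still this low was 100 min in peroxide II, whereas in menadione I and II it was the final time sampled. In peroxide I the last such time was also the final one, at 275 min, after values close to the start in between.

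**Figure D1:**
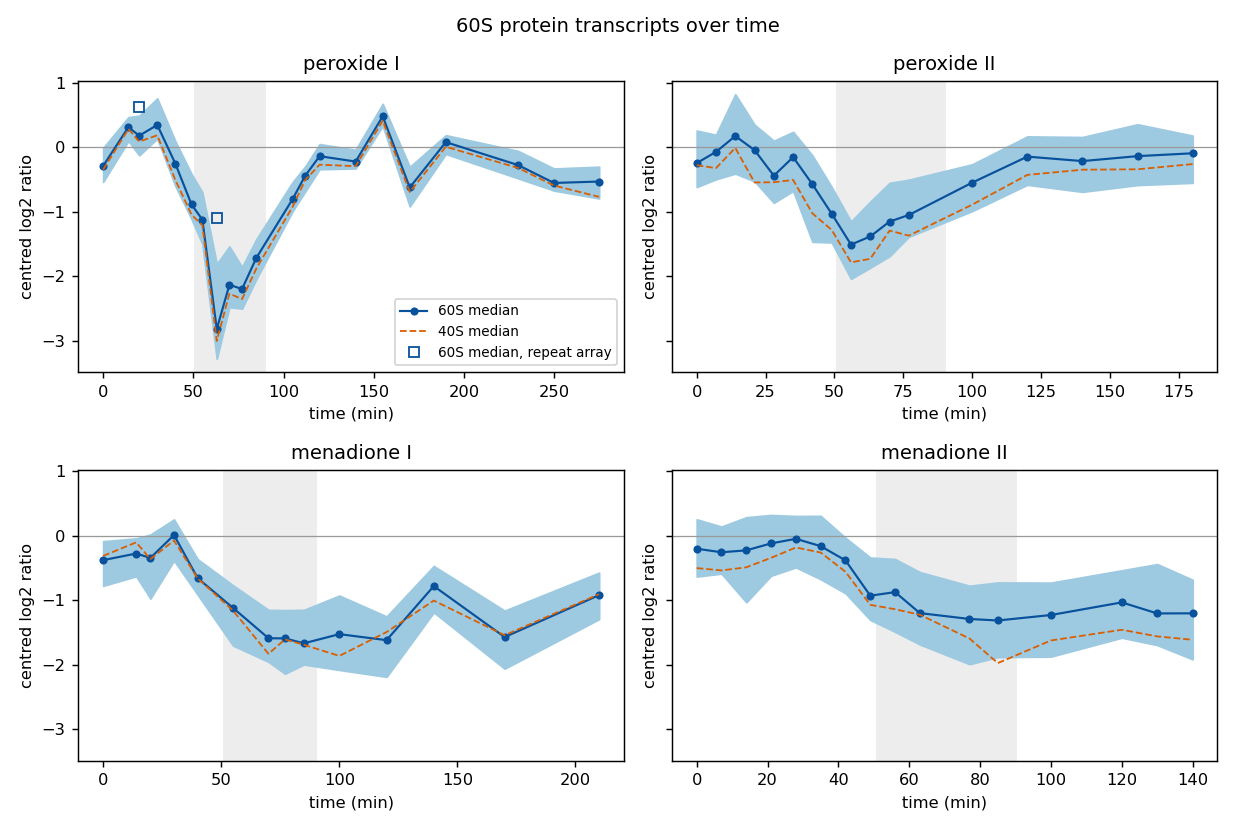
Median centred log2 ratio of the 60S members (blue points) with their quartiles (band) against time in min in each course. Orange dashes are the median of the 40S proteins, and grey marks 51 to 90 min. Open squares are the repeat arrays of 20 and 63 min in peroxide I. The line follows the first arrays there, and the redo arrays of 49 and 170 min, which had no other. The drawn line of peroxide I is therefore lowest at 63 min, at -2.82. The peroxide medians turned back after lows of -2.20 at 77 min (repeats averaged) and -1.51 at 56 min, while the menadione II median stayed between -1.23 and -1.03 from 100 min.

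Members differed in how closely they followed the rest. Over the times of peroxide I, the correlation of a member with the mean of the others had a median of 0.93, and only RPL25 was under 0.5. The corresponding medians were 0.75 in peroxide II, 0.73 in menadione I and 0.68 in menadione II, with 14, 14 and 18 members under 0.5. Points of 1 course share their arrays, so these values are descriptions. In peroxide I 75 of 78 members had their lowest value between 51 and 90 min. In menadione I 39 members were lowest in that window and 36 after it, and in menadione II 35 and 32.

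**Figure D2:**
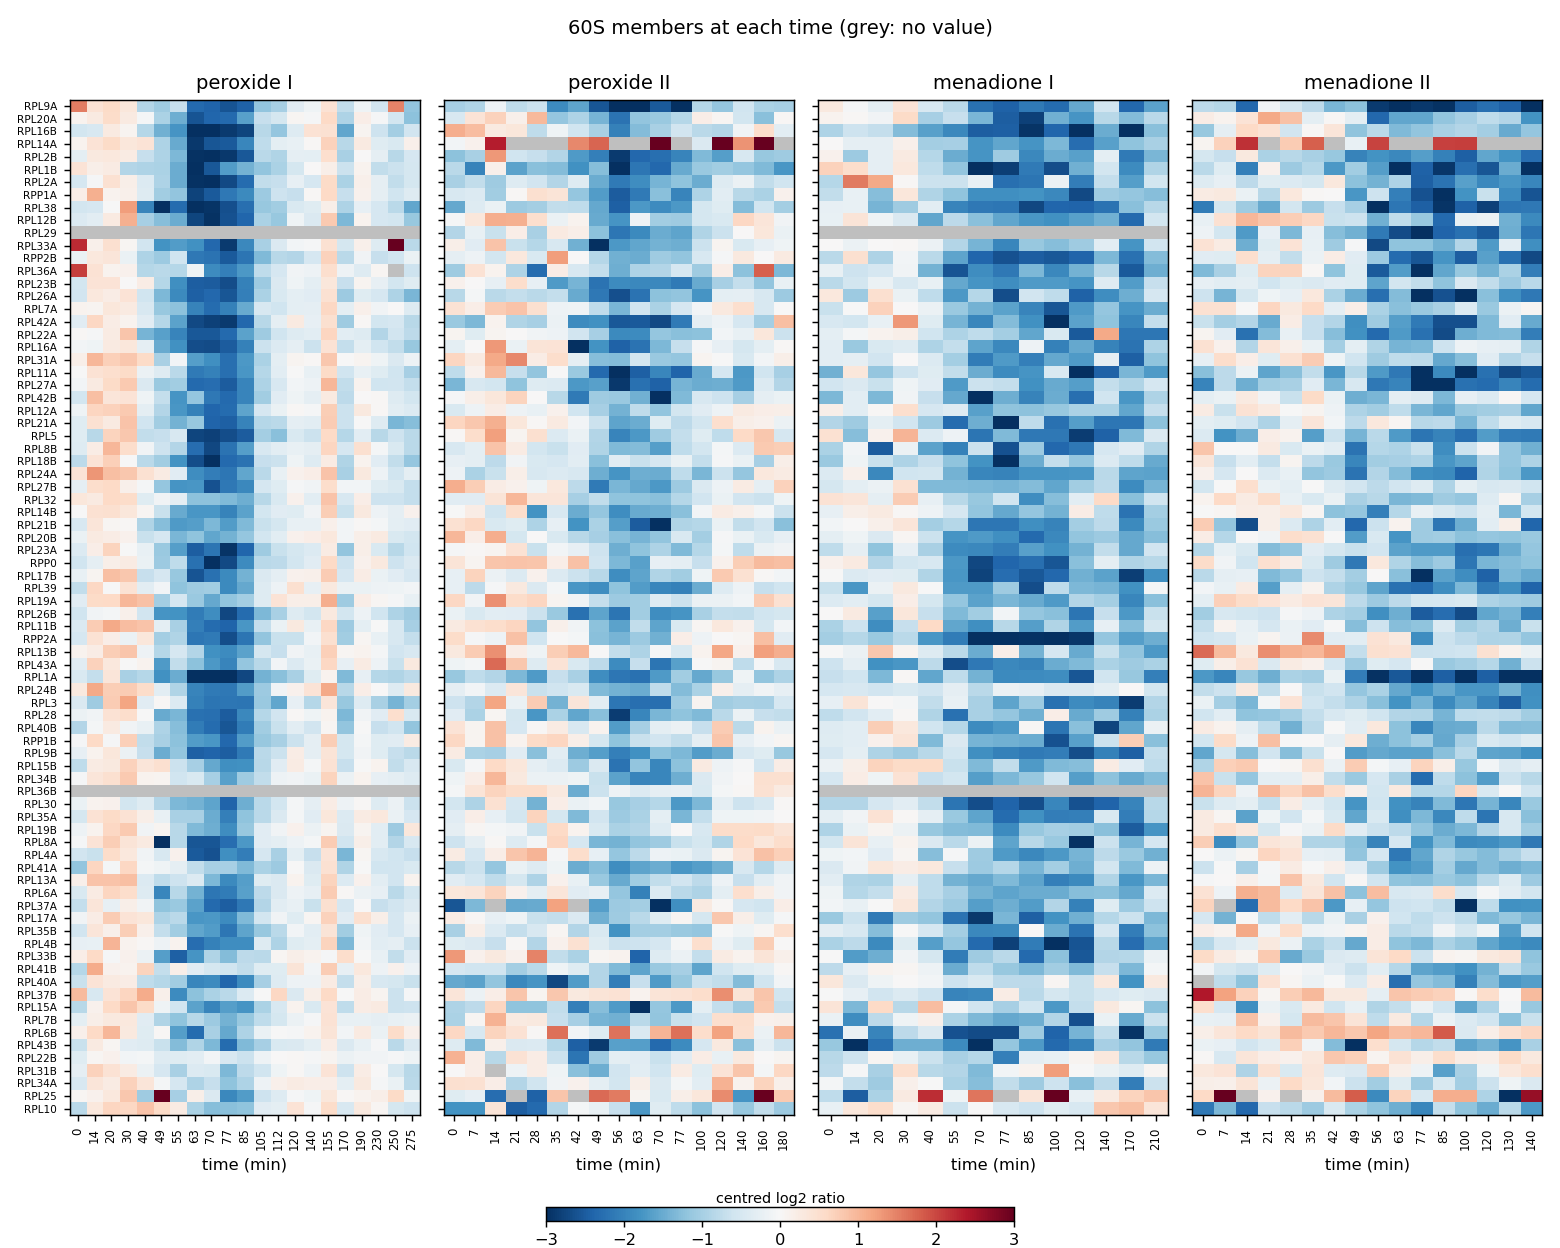
Centred log2 ratio of each 60S member (rows, ordered by the median rank of their change at 51 to 90 min) at each time in min (columns) of the 4 courses, from blue (-3 or lower) to red (3 or higher); grey means no value. The dark band of peroxide I spans nearly all rows from 63 to 85 min, and RPL25, RPL10, RPL22B and RPL6B near the foot break the pattern in 1 or more courses. RPL14A, ranked without the second series, has mostly positive values there.

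Changes at 51 to 90 min were tested against the first 21 min with a moderated linear model (limma) over all genes, at an adjusted p under 0.05. In peroxide I 73 of 78 members were lower, with a median change of -2.02, while the median over all 5551 genes tested was 0.03 and 8.72% of them were lower. The 5 exceptions were RPL10, RPL22B, RPL25, RPL41A and RPL41B. Leaving out the times of the repeated arrays left 63 members lower. Here and below, counts under such alternatives come without the share of all genes, which was not recorded.

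In peroxide II 39 of 79 members were lower, against 5.04% of 5519 genes, and the median change was -1.30 (all genes, 0.05). RPL14A, the remaining member, had values at only 10 times and was not tested. Those values showed no fall: RPL14A stood at -0.08, 0.13 and 2.34 early and at 3.14 at 70 min. Its later values ran from -0.44 at 100 min to 3.38 at 120 min. In menadione II, where it was not tested either, RPL14A was at 0.09, 0.69 and 2.20 early. There it was at 2.04 at both 56 and 85 min. Of the 79 members 74 had a negative change. Arrays of 14, 21 and 28 min had been scanned on another day, and the count was 16 both with the scan day as a covariate and within the main scan day alone.

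In menadione II 21 of 79 members were lower, against 2.87% of 5537 genes, with a median change of -0.96 (all genes, 0.00). This count was 1 when only the arrays of the 2 windows entered the fit and 6 when arrays were scaled to the same spread. Without the 85 min array it was 9. In menadione I 5 of 78 members were lower, against 0.684% of 5552 genes, with a median change of -1.06 (all genes, 0.02). They were RPL1B, RPP0, RPL17B, RPL30 and RPL20B. The count fell to 0 without the 0, 14, 20 or 70 min array, to 2 without the 77 or the 85 min array, and was 15 with array quality weights. The changes themselves were negative for 74 of 78 members in menadione I and 74 of 79 in menadione II. No member was higher in this window in any course, while 6.54% of all genes tested were in peroxide I, 8.99% in peroxide II, 2.17% in menadione II and 1.22% in menadione I.

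No member was lower in all 4 courses. In 3 of them 14 members passed, among them RPL9A, RPL20A, RPL1B, RPL38, RPL12B and RPP2B, and 66 of the 77 members tested in all courses had a negative change in each. Another 6 members passed in none: RPL10, RPL22B, RPL25, RPL41A, RPL41B and RPL36B, the last of which was measured in the second series alone. No share of all genes is set beside these counts across courses, so whether members differ from other genes in this was not tested.

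RPL9A was among the 6 most negative members of every course. In peroxide II it stood at -0.99, -0.90, -0.16 and -0.75 in the first 21 min and at -3.16, -3.01, -2.52 and -3.22 from 56 to 77 min. The windows did not overlap, and the change was -2.28 ± 0.38 (SE, adjusted p = 0.000211). In menadione II the early values were -0.79, -0.85, -2.36 and -0.11, and those from 56 to 85 min were -2.88, -3.12, -2.89 and -2.96. That change was -1.93 ± 0.38 (adjusted p = 0.00395). In peroxide I RPL9A changed by -2.93 ± 0.52 (adjusted p = 0.000509). In menadione I its change of -1.90 ± 0.49 did not pass (adjusted p = 0.059).

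The order of the other members varied between courses. In peroxide I the most negative changes were those of RPL33A (-3.09 ± 0.83), RPL9A, RPL2B (-2.68 ± 0.38), RPL14A (-2.65 ± 0.36) and RPL42A (-2.63 ± 0.35). That of RPL33A rested on a high value of 2.23 at 0 min, and without the 0 min array it was -2.45 and did not pass (adjusted p = 0.0904). In peroxide II they were those of RPL21B (-2.37 ± 0.66), RPL11A (-2.36 ± 0.44), RPL9A, RPL43A (-2.18 ± 0.40) and RPL34B (-2.09 ± 0.40). Without the 70 min array, where it stood at -4.17, RPL21B did not pass (adjusted p = 0.083), and RPL43A did not within the main scan day (adjusted p = 0.0552).

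In menadione I the most negative were RPL1B (-2.82 ± 0.60), RPP0 (-2.11 ± 0.49), RPL17B (-2.08 ± 0.42), RPL2A (-1.95 ± 0.65, not past the threshold) and RPP2A (-1.95 ± 0.55, not past the threshold). RPL43B, at 0.22 ± 0.52, and RPL24B, at 0.14 ± 0.34, did not pass there and were among the highest. The value of RPL24B averages 4 probes that spanned 3.68 log2 units. In menadione II they were RPL20A (-2.14 ± 0.44), RPP1A (-2.06 ± 0.53), RPL9A, RPL12B (-1.93 ± 0.48) and RPL29 (-1.89 ± 0.40). With the windows fitted alone, RPP1A, RPL9A, RPL12B and RPL29 did not pass, with adjusted p of 0.0517 to 0.0907. Across members, the changes of 2 courses correlated between 0.19 (peroxide II with menadione II, 79 members) and 0.40 (peroxide I with menadione II, 77 members). These correlations are across genes, which are not independent, and they carry no test. Only RPL9A was among the 10 most negative in 3 or more courses.

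The stalk and its base comprise RPP0, the acidic proteins RPP1A, RPP1B, RPP2A and RPP2B, which it anchors, and RPL12A and RPL12B beside it. The stalk recruits elongation factors to the ribosome. All 7 were lower in peroxide I at 51 to 90 min, 4 in peroxide II, 5 in menadione II and 1 in menadione I, against 8.72%, 5.04%, 2.87% and 0.684% of all genes tested, and all 7 had a negative change in each course. RPP0 in menadione I stood at 0.12, 0.27 and -0.87 in the first 21 min and at -1.72, -2.72, -2.38 and -2.26 from 55 to 85 min, without overlap (adjusted p = 0.0316). In peroxide II RPP0 changed by -1.42 ± 0.47 (adjusted p = 0.0403). These calls were lost in 7 of 15 and 9 of 19 alternatives. RPP1A in menadione II lost its call in 6 of 17, and RPP0 there, at -0.83 ± 0.47, did not pass (adjusted p = 0.344).

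RPL5 and the pair RPL11A and RPL11B bind the 5S ribosomal RNA and enter the subunit with it as 1 particle. All 3 were lower in peroxide I and in peroxide II, against 8.72% and 5.04% of genes. In menadione I and II 0 of 3 were by limma's test, with 0 and 1 at an unadjusted p under 0.05. Here and below, counts at an unadjusted p come without the share of all genes at that level, so they show no excess among members. RPL11A in peroxide II was at -0.77, 0.13, 0.97 and -0.70 early and at -2.98, -2.45, -1.97 and -2.41 from 56 to 77 min (adjusted p = 0.000668). RPL5 changed by -2.06 ± 0.48 in peroxide I (adjusted p = 0.00467) and -1.84 ± 0.46 in peroxide II (adjusted p = 0.00679). The first call was lost without the 20 and 63 min arrays (adjusted p = 0.0811), and the second with scan day as a covariate (-1.53, adjusted p = 0.09) and within the main scan day (adjusted p = 0.0531). Its changes in menadione I, -1.23 ± 0.64, and menadione II, -0.81 ± 0.46, did not pass. The difference between peroxide II and menadione II was tested as an interaction, and at 51 to 90 min no member passed it, RPL5 and RPL11 included.

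The core near the catalytic centre and the tRNA sites was represented by RPL2A, RPL2B, RPL3, RPL10, RPL28, RPL42A and RPL42B. Of these 7, 6 were lower in peroxide I, 5 in peroxide II, 1 in menadione II and 0 in menadione I, against 8.72%, 5.04%, 2.87% and 0.684% of all genes tested, and 5 had an unadjusted p under 0.05 in menadione I. RPL3, which reaches toward the catalytic centre, changed by -1.55 ± 0.47 in peroxide I (adjusted p = 0.0279) and -1.81 ± 0.45 in peroxide II (adjusted p = 0.00679). The call of peroxide I was lost in 8 of 21 alternatives, and that of peroxide II with scan day as a covariate (-1.19, adjusted p = 0.152) and within the main scan day (-1.19, adjusted p = 0.158). RPL28 changed by -2.11 ± 0.39 in peroxide I (adjusted p = 0.000814) and -1.41 ± 0.34 in peroxide II (adjusted p = 0.00518), and was at -0.12 ± 0.34 in menadione II (adjusted p = 0.883). In peroxide II the call of RPL28 was lost within the main scan day (-1.21, adjusted p = 0.122) and with medians over probes (-1.10, adjusted p = 0.0689). The 3 probes of RPL28 disagreed in menadione II, with changes of -1.31, 0.05 and 0.89.

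RPL10, the exception of the core, is among the last proteins loaded onto the subunit in the cytoplasm. Its values in peroxide II were -1.79, -1.80, 0.39 and -2.48 in the first 21 min and -0.68, -1.71, -0.35 and -0.77 from 56 to 77 min. The windows overlapped, and its change of 0.54 ± 0.49 did not pass (adjusted p = 0.499). In menadione II the change was 0.30 ± 0.49 (adjusted p = 0.793), in menadione I -0.64 ± 0.42 (adjusted p = 0.525) and in peroxide I -0.94 ± 0.36 (adjusted p = 0.0788). In peroxide I RPL10 was still above 0 at 55 min, at 0.24, and was at -0.96 to -1.28 from 63 to 85 min. The proteins that join late in the cytoplasm, RPL10, RPP0 and the RPL24, RPL29, RPL40 and RPL42 proteins, were lower in 7 of 8 cases in peroxide I, 5 of 9 in peroxide II, 1 of 9 in menadione II and 1 of 8 in menadione I, with the same shares of all genes beside them.

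Around the exit tunnel lie both copies of RPL4, RPL17, RPL19, RPL26, RPL31 and RPL35, with RPL25 and RPL39. Of these 14 members 13 were lower in peroxide I, 4 in peroxide II, 5 in menadione II and 1 in menadione I, against 8.72%, 5.04%, 2.87% and 0.684% of all genes tested. RPL39, a small protein in the tunnel wall, was lower in peroxide I (-1.31 ± 0.28), peroxide II (-1.53 ± 0.42) and menadione II (-1.58 ± 0.42). RPL17B changed by -2.08 ± 0.42 in menadione I (adjusted p = 0.0159). RPL25, where targeting factors dock at the tunnel exit, was measured by 1 probe in each array design and was unlike most other members. In peroxide II it was at -0.36, -0.25 and -2.29 early, with no value at 21 min, and at 1.55, 0.09, -0.46 and 0.18 from 56 to 77 min, a change of 1.31 ± 1.18 (adjusted p = 0.498). In menadione I the change was 2.00 ± 0.79 (adjusted p = 0.237) and in menadione II -1.73 ± 1.18 (adjusted p = 0.454). Single values of RPL25 reached 3.46 at 49 min in peroxide I and 4.00 at 7 min and -3.73 at 130 min in menadione II.

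RPL30, known to block splicing and translation of its own transcript, was lower in peroxide I (-1.65 ± 0.25, adjusted p = 0.000174) and menadione I (-1.73 ± 0.42, adjusted p = 0.0405), the second of which was lost in 10 of 15 alternatives. In peroxide II its change was -0.80 ± 0.41 (adjusted p = 0.203). RPL41A and RPL41B, which encode the smallest ribosomal protein, had negative changes in all 4 courses, between -0.53 and -0.96, and passed in none. In peroxide I RPL41A stood at -1.19, 0.64 and -0.06 early and between -1.32 and -0.26 from 55 to 85 min, so that the windows overlapped.

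The return after 90 min was measured against 51 to 90 min. In peroxide I 71 of 78 members were higher after 90 min than at 51 to 90 min, against 7.91% of 5551 genes, with a median rise of 1.46 (all genes, 0.02). In peroxide II 11 of 79 were higher, against 1.07% of 5538 genes, with a median of 1.03 (all genes, 0.01) and 77 of 79 positive. That count was 3 without the 56 min array, 49 with array quality weights, 34 without centring and 26 when the 2 windows were fitted alone. The share of all genes was not recorded under these settings. In menadione I and menadione II 0 of 78 and 0 of 79 members were higher by limma's test, with 0% of all genes higher in either, and 5 and 4 members had an unadjusted p under 0.05. The median differences there were 0.20 and 0.01.

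Among members whose change at 51 to 90 min was below -0.5, the median share of the fall regained after 90 min was 77.8% in peroxide I (77 members) and 79.6% in peroxide II (67 members). It was 16.2% in menadione I (67 members) and 5.13% in menadione II (63 members). Both changes of a course use the same 51 to 90 min arrays. In menadione II 27 of these members were lower still after 90 min, and in the peroxide courses 0.

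RPL42A, which lies near the exit site of the tRNA, rose most in peroxide II, by 2.26 ± 0.45 (adjusted p = 0.00577), followed by RPL9A with 2.07 ± 0.36 (adjusted p = 0.00138) and RPL34B with 1.84 ± 0.38 (adjusted p = 0.00686). RPL34B was at -1.60, -1.97, -1.96 and -1.47 from 56 to 77 min and at -0.42, -0.11, 0.01, 0.48 and 0.48 from 100 to 180 min. Its windows did not overlap. In peroxide I RPP0 rose by 1.85 ± 0.32 (adjusted p = 0.000455), and the 7 members that did not pass were RPL3, RPL10, RPL22B, RPL25, RPL31B, RPL41A and RPL41B.

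Set against the first 21 min, no member was lower after 90 min in either peroxide course (0.036% of 5551 genes in peroxide I and 0.127% of 5520 in peroxide II were), although 11 and 9 members had an unadjusted p under 0.05. All 78 changes of peroxide I were still negative, with a median of -0.43, and 48 of 79 were in peroxide II, with a median of -0.18. In menadione II 12 of 79 members were lower, against 1.68% of 5538 genes, with a median of -0.99 (all genes, -0.01). RPP2B led with -2.14 ± 0.38 (adjusted p = 0.00172), followed by RPL11A with -1.72 ± 0.44 (adjusted p = 0.0286). The count was 1 without the 140 min array and 25 without centring. In menadione I 3 of 78 were lower, against 0.216% of 5552 genes: RPL3 (-2.03 ± 0.44), RPL17B (-1.76 ± 0.40) and RPL7A (-1.74 ± 0.41). Leaving out 1 array at a time gave counts of 0 to 3, with 0 without the 14, 20, 100 or 170 min array. No member was higher than early on after 90 min in any course, against 0.0721% of genes in peroxide I, 0.507% in peroxide II, 1.21% in menadione II and 1.1% in menadione I.

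**Figure D3:**
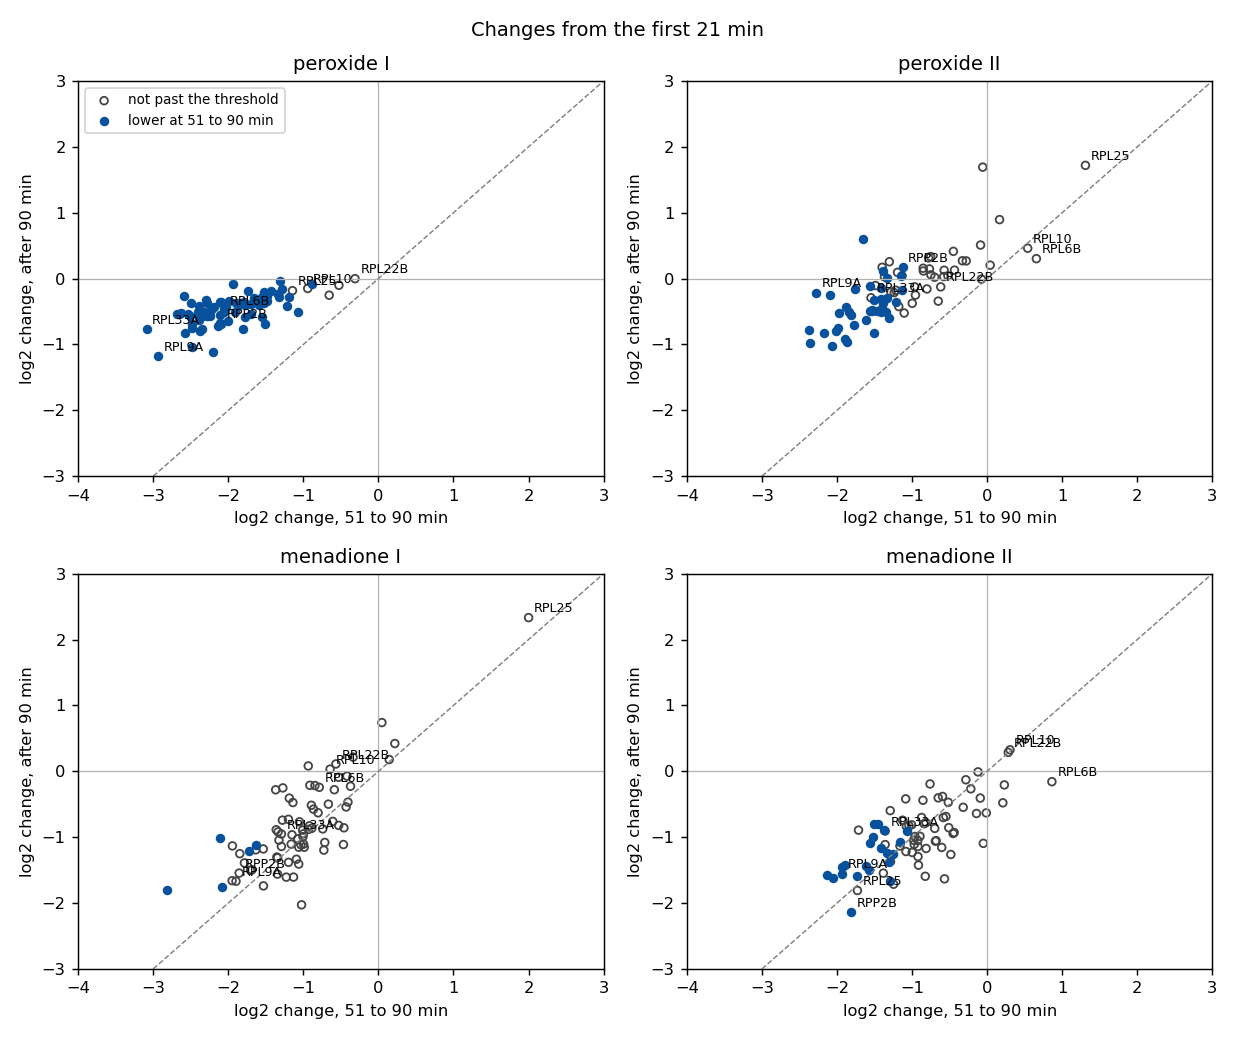
Log2 change of each 60S member after 90 min (vertical) against that at 51 to 90 min (horizontal), both from the first 21 min, in each course; filled points were lower at 51 to 90 min, and points on the dashed line kept the same change. All peroxide I members and all peroxide II members but RPL6B and RPL10 lie above the line, with late medians of -0.43 and -0.18, and menadione II members lie around it, with a late median of -0.99; both axes share the same early arrays.

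The difference between peroxide II and menadione II was tested within the second series, where both courses used 1 array design. Each oxidant was represented by 1 culture there, with no dose stated, so oxidant and culture cannot be told apart. The late change of peroxide II exceeded that of menadione II for 69 of 79 members, with a median difference of 0.79 (all genes, 0.06). Of the members, 24 had an unadjusted p under 0.05, and the share of all genes at that level is not given here. The late windows were unlike in length, from 100 to 180 min in peroxide II and from 100 to 140 min in menadione II. Only RPP2B passed after adjustment, against 0.906% of 5519 genes higher, with a difference of 2.31 ± 0.52 (adjusted p = 0.0291). In menadione II RPP2B was at -0.35, -0.37, 0.50 and -0.26 in the first 21 min and at -2.48, -1.62, -2.23 and -2.71 from 100 to 140 min. In peroxide II it was at -0.26, -0.16, -0.56 and 0.32 early and at -0.47, -0.04, 0.28, 0.00 and 0.26 from 100 to 180 min. In menadione II the late values all lay below the early ones, and in peroxide II the windows overlapped. The count was 0 with scan day as a covariate, 4 with array quality weights and 11 without centring. Since menadione II shared no scan day with peroxide II, oxidant and scan day cannot be told apart for levels. Scan day also entered the changes, because the 14 and 21 min arrays of peroxide II were scanned on another day than those from 35 min on. At 51 to 90 min 0 members differed (0.109% of 5517 genes were higher and 0.0363% lower, 9 members at an unadjusted p under 0.05), with a median difference of -0.07.

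The window of 22 to 50 min held 2 to 4 arrays a course, and the member medians dropped within it. At 49 min 69 of 78 members were below 0 in peroxide I, with a median of -0.89, and 75 of 80 in peroxide II, with a median of -1.03. Over the whole window of peroxide II 1 of 79 members passed, RPL23B with -1.48 ± 0.33 (adjusted p = 0.00917), against 1.18% of 5501 genes lower, and the median change was -0.50. In the other courses 0 members were lower by this test, against 0.27% of 5548 genes in peroxide I, 0% of 5498 in menadione I and 0% of 5538 in menadione II. There 8, 1 and 4 members had an unadjusted p under 0.05, and the medians were -0.40, 0.02 and -0.14. RPL23B encodes a protein of the face that meets the 40S subunit. In peroxide II the count was 10 without the 28 min array, 7 without the 35 min array and 0 without the 49 min array. No member was higher at 22 to 50 min in any course, against 0.505% of genes in peroxide I, 2.76% in peroxide II, 0% in menadione I and 0% in menadione II.

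Copies A and B of a protein were compared within arrays, and 33 pairs could be tested in each course. The correlation of A with B over time had a median of 0.92 in peroxide I, 0.62 in peroxide II, 0.51 in menadione I and 0.52 in menadione II. The change of A minus B within an array was tested with all genes. At 51 to 90 min it passed for 3 pairs in peroxide I, 3 in peroxide II, 1 in menadione II and 0 in menadione I. Among all genes tested, 15.3%, 14%, 5.04% and 1.91% changed in either direction. The share of pairs that passed was thus below that of all genes in every course. No pair passed in more than 1 course. Copies of a pair can be nearly identical in sequence, so that a probe may report both. How far this holds for these probes was not tested.

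**Figure D4:**
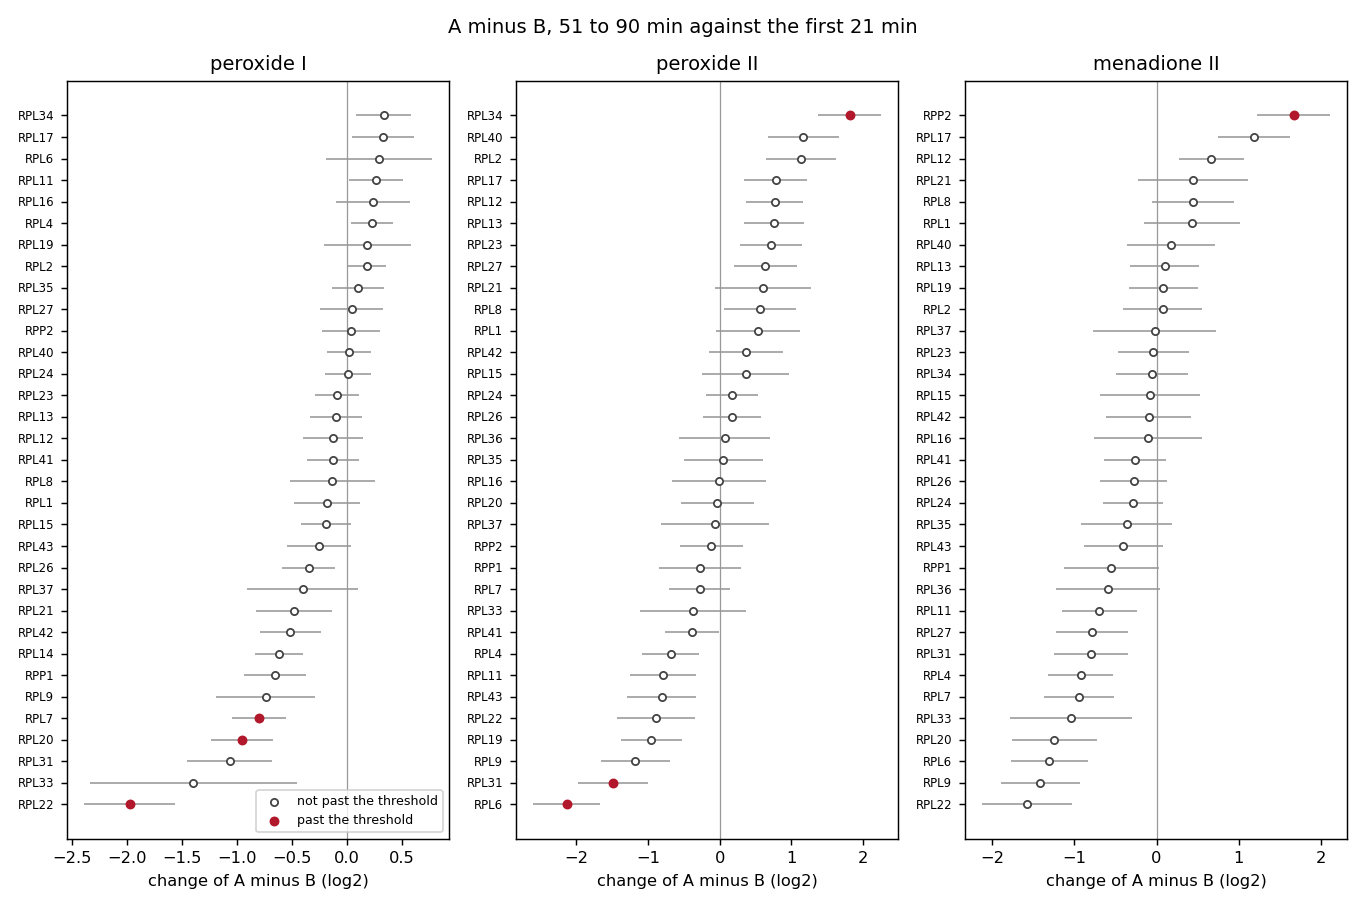
Change of A minus B (log2, with bars of 1 SE) between the first 21 min and 51 to 90 min for each of 33 pairs in 3 courses; red points passed the test. Most pairs lie within 1 log2 unit of 0, and the lowest are RPL22 in peroxide I (-1.97) and RPL6 in peroxide II (-2.13).

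RPL22 showed the clearest split in peroxide I. RPL22A went from 0.03, -0.04 and 0.25 in the first 21 min to -1.98, -2.55, -2.55, -2.32 and -1.61 from 55 to 85 min. RPL22B was at -0.36, 0.05 and 0.12 and then at -0.36, -0.32, -0.08, -0.47 and -0.63. The difference changed by -1.97 ± 0.41 (adjusted p = 0.00205) and came back by 1.43 ± 0.31 after 90 min (adjusted p = 0.00294, and 0.0552 with arrays scaled to the same spread). Both probes of RPL22B had small changes, -0.47 and -0.15, but they correlated at only -0.04 over the arrays. Whether this flat signal reports the transcript was not tested. The split at 51 to 90 min passed under every alternative tried. RPL22 is not essential in yeast, and RPL22B is known as the copy expressed less. In menadione II the same difference changed by -1.57 ± 0.55 and did not pass (adjusted p = 0.0869). Its change did not pass in peroxide II (-0.88 ± 0.55, adjusted p = 0.292) or menadione I (-0.42 ± 0.65, adjusted p = 0.841) either.

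RPL6 split in peroxide II. There RPL6A went from 0.35, 0.35, 0.67 and 0.13 to -1.15, -2.04, -0.41 and -0.80, while RPL6B went from 0.62, -0.48, 0.68 and 0.44 to 1.63, -0.44, 1.03 and 1.65. The change of the difference was -2.13 ± 0.46 (adjusted p = 0.00251), and it passed under every alternative tried. In menadione II the change of the difference was -1.30 ± 0.46 and did not pass (adjusted p = 0.0962). It was 0.29 ± 0.48 in peroxide I (adjusted p = 0.78) and -0.016 ± 0.655 in menadione I (adjusted p = 0.997). RPL6B had the highest change of all members in menadione II, 0.86 ± 0.42, which did not pass (adjusted p = 0.258). In peroxide I, on arrays of another design, RPL6B changed by -2.06 ± 0.28 (adjusted p = 6.88e-05).

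In peroxide II RPL34B fell while RPL34A was at -0.28 ± 0.35, and the difference changed by 1.81 ± 0.44 (adjusted p = 0.00562). That call was lost in 2 of 19 alternatives, among them within the main scan day (adjusted p = 0.118). The 2 probes of RPL34A disagreed, with changes of -1.22 and 0.66. RPL31A fell there and RPL31B was at -0.33 ± 0.48, a change of the difference of -1.48 ± 0.49 (adjusted p = 0.0389). That call was lost in 9 of 19 alternatives, among them without the 0, 21, 56, 70 or 77 min array, with adjusted p up to 0.214. In menadione II RPP2B fell and RPP2A, its paralogue, was at -0.14 ± 0.45, a change of the difference of 1.67 ± 0.44 (adjusted p = 0.0231). RPP2A was at -0.59, -0.50, -0.21 and 0.09 early and at 0.44, 0.29, -1.86 and -0.65 from 56 to 85 min, while RPP2B was at -1.08, -2.30, -2.57 and -1.78. The call was lost in 6 of 17 alternatives, among them without the 14, 56 or 63 min array.

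In peroxide I the smaller differences of RPL20 (-0.95 ± 0.28, adjusted p = 0.0229) and RPL7 (-0.80 ± 0.24, adjusted p = 0.0273) also passed, A falling more than B in both. Neither did without the 20 and 63 min arrays, and their calls were lost in 4 and 5 of 21 alternatives. On return, where 14% of all genes changed in either direction, RPL7 (0.73 ± 0.18) and RPL14 (0.52 ± 0.16, adjusted p = 0.0364) passed beside RPL22, and RPL14 lost its call in 11 of 25 alternatives. In menadione I the largest change was that of RPL1A minus RPL1B, 2.21 ± 0.58, which did not pass.

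**Figure D5:**
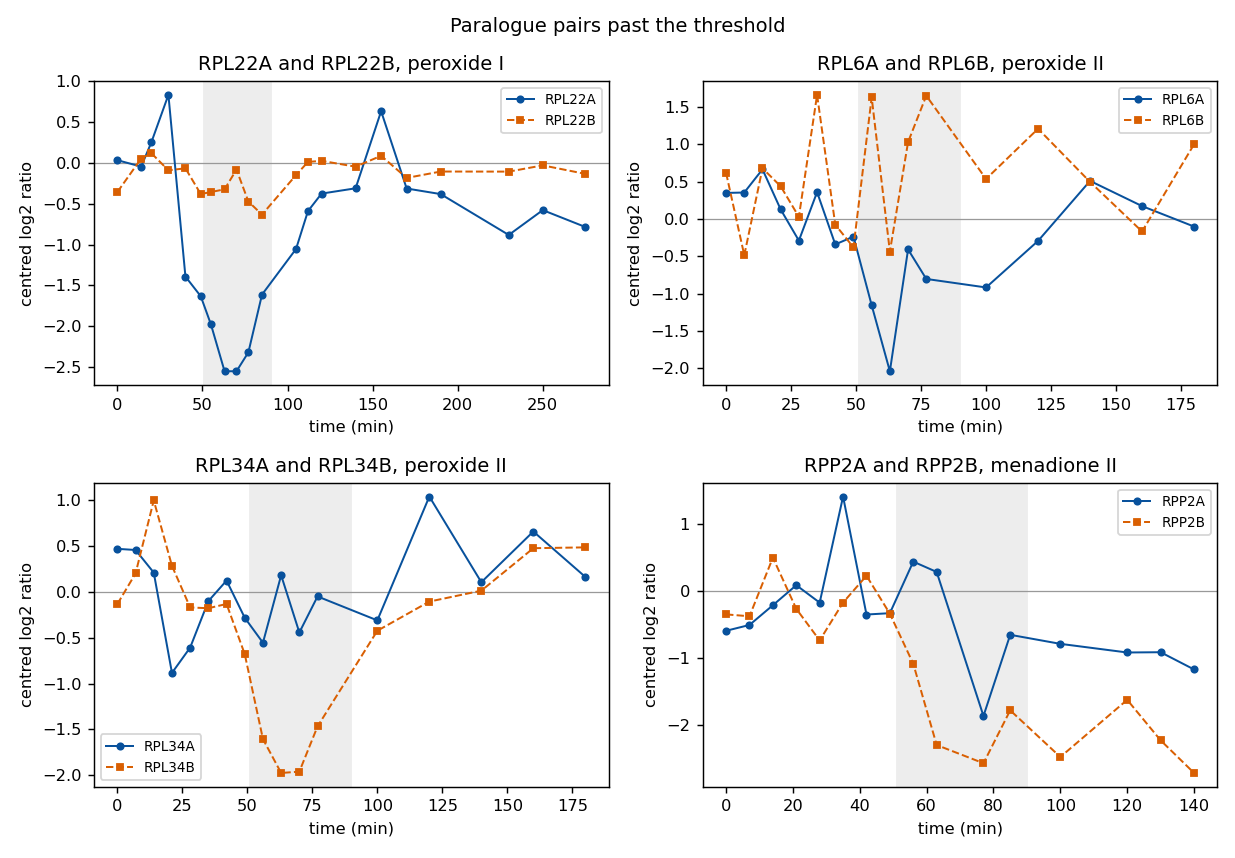
Centred log2 ratio of copies A (blue) and B (orange) against time in min for 4 pairs that passed in the course named; grey marks 51 to 90 min. RPL22A reached -2.55 while RPL22B stayed above -0.7, RPL6A and RPL6B parted to -1.15 and 1.63 at 56 min, RPL34B reached -1.97 while RPL34A stayed above -0.9, and RPP2B reached -2.71 in menadione II.

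Several members were measured by more than 1 probe, and the probes of a gene did not always agree. In the second series 17 of 23 such members had a pair of probes that correlated under 0.5 over the arrays, in menadione I 28 of 42 and in peroxide I 5 of 23. With each probe as a row of its own, at least 1 probe was lower at 51 to 90 min for 73 members in peroxide I, 42 in peroxide II, 22 in menadione II and 2 in menadione I. Over all probes tested, 541 of 6621, 302 of 6482, 159 of 6504 and 20 of 9196 were lower in these courses. Of the members with several probes, all probes were lower for 13 of 23 in peroxide I, 5 of 23 in peroxide II, 0 of 23 in menadione II and 0 of 40 in menadione I. The median range between probes of a member was 0.65 in peroxide I and 0.71 to 0.82 in the other courses. All 3 probes of RPL28 were lower in peroxide I, and 2 of 3 in peroxide II. For RPL37B, a probe pair in peroxide I gave -2.19 and -0.49. The widest range was that of RPL24B in menadione I, whose 4 probes changed by -1.64, -0.67, 0.83 and 2.05, none past the threshold.

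The small subunit was measured on the same arrays. Of 56 proteins of the 40S subunit 52 were lower in peroxide I at 51 to 90 min, 30 in peroxide II, 15 in menadione II and 9 in menadione I, against 8.72%, 5.04%, 2.87% and 0.684% of all genes tested. Their median changes were -2.12, -1.34, -0.94 and -1.16, and the difference between subunits was not tested. After 90 min 52 were higher again in peroxide I and 13 in peroxide II, against 7.91% and 1.07% of genes, and 0 in either menadione course, where 0% of genes were and 5 and 2 of the 40S genes had an unadjusted p under 0.05 in limma's test.

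A list of 20 genes for chaperones and assembly factors of the 60S subunit was also examined. At 51 to 90 min 11 were lower in peroxide I, 3 in peroxide II, 4 in menadione II and 3 in menadione I, against 8.72%, 5.04%, 2.87% and 0.684% of all genes tested. Another was higher, in peroxide II, against 8.99% of genes. RLP7, an assembly factor related to the RPL7 proteins, changed by -2.41 ± 0.45 in peroxide I (adjusted p = 0.000778), and NMD3, the export adaptor of the subunit, by -1.96 ± 0.41 (adjusted p = 0.00194). MRT4, which holds the place of RPP0 on the immature subunit, changed by -3.50 ± 0.69 in peroxide II (adjusted p = 0.00124). SYO1, which carries Rpl5 and Rpl11 into the nucleus, changed by -2.47 ± 0.60 in menadione II (adjusted p = 0.0128) and -1.97 ± 0.46 in menadione I (adjusted p = 0.0308). LSG1, a GTPase that releases NMD3, changed by -2.13 ± 0.49 in menadione II (adjusted p = 0.00963). After 90 min of menadione II RRB1, the chaperone of Rpl3, was lower, at -3.86 ± 0.70 (adjusted p = 0.0019), and NMD3 changed by -2.10 ± 0.50 (adjusted p = 0.0154).

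RLP24, which holds the place of the RPL24 proteins, changed in opposite directions, by 2.67 ± 0.73 in peroxide II (adjusted p = 0.0133) and -2.72 ± 0.49 in menadione I (adjusted p = 0.00916). These are arrays of different designs. Within the second series its late difference between peroxide II and menadione II was 4.01 ± 1.00 (adjusted p = 0.0434), and that of SQT1, the chaperone of Rpl10, was 2.74 ± 0.71 (adjusted p = 0.0495). Calls of assembly factors and regulators were not run under the alternatives used for members, such as scan day as a covariate.

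Among 13 regulators of ribosomal protein genes, 1 was lower at 51 to 90 min in peroxide I and 2 in peroxide II, against 8.72% and 5.04% of genes, and 1 was higher in each course of the second series, against 8.99% and 2.17%. TOD6, a repressor of ribosome biogenesis genes, was lower at 51 to 90 min in peroxide I (-2.44 ± 0.40, adjusted p = 0.000266) and peroxide II (-3.39 ± 0.55, adjusted p = 0.000173). IFH1, the coactivator of ribosomal protein genes, was lower in peroxide II (-2.04 ± 0.48, adjusted p = 0.00517). MAF1, the repressor of RNA polymerase III, was higher there (1.31 ± 0.32, adjusted p = 0.00679). Its change differed between peroxide II and menadione II by 2.20 ± 0.46 at that time (adjusted p = 0.0421). CRF1, which competes with IFH1 as a corepressor, was higher in menadione II (1.14 ± 0.33, adjusted p = 0.0431). At 22 to 50 min of peroxide II TOD6 was already lower (-2.05 ± 0.55, adjusted p = 0.0307) and MAF1 higher (1.34 ± 0.32, adjusted p = 0.0156), together with lower ARX1 (-2.15 ± 0.63, adjusted p = 0.0454) and TIF6 (-1.21 ± 0.36, adjusted p = 0.0477), factors that ride on the immature subunit.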

How the data were processed

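Per the labels, each array compared RNA of a timed culture (Cy5) with RNA of an asynchronous reference (Cy3). The authors deposited 1 log ratio per spot, taken as log2; base, background correction, normalisation and spot filter are not given in the sources used here. Spots were named through the platform annotation, probes of a gene were averaged, arrays were centred on the median gene, and the repeats of peroxide I were averaged. Genes needed values in 75% of arrays and in 2 arrays of each window. limma 3.58.1 under R 4.3.3 fitted 1 mean per course and window (first 21, 22 to 50, 51 to 90 and after 90 min), with Benjamini-Hochberg adjustment over all genes of a table (A minus B rows added) and a threshold of 0.05. The code was tested on simulated data. Number of arrays limits the precision. Genes named by rule were RPL3, RPL5, RPL10, RPL25, RPL28, RPL30, RPP0, RPL41A and RPL41B. The rule then added the 5 lowest and 3 highest changes per course, pairs, interactions and pathway genes past the threshold, and the 2 members least like the rest. Some other members, such as RPL39 and RPL23B, were named outside this rule with their results known. Members, lists and rules were chosen with earlier results of these data known. Alternatives varied centring, scaling, weights, filters, probes, windows, repeats, scan day and single arrays. Sequences and coordinates were not used here.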

Additional observations from a re-analysis of the deposited data

Results flagged for a closer look

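Of 214 sets of 4 to 10 time points (a gene or the member median in 1 window of 1 course), 16 had a time point far from the others, and chance gives about 1 in 20. In peroxide I 4 of these were at 55 min, the first time of the 51 to 90 min window: RPL10 stood at 0.24, RPL3 at -0.40, RPL5 at -0.49 and RPL9A at -0.69, all above the later times. RPL30 stood lowest there at 77 min, with -2.40. After 90 min RPL33A reached 4.49 at 250 min and RPL5 reached 0.60 at 155 min. In menadione I the member median of -1.12 at 55 min was the highest of its window, and RPL24B was at -0.82 at 70 min, the lowest of its own.

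In peroxide II RPL34B was at -0.68 at 49 min, RPL3 at -1.09 at 77 min and the member median at -0.55 at 100 min, the first time after 90 min. In menadione II RPL29 was at -0.25 at 35 min, RPP1A at -1.75 at 49 min, RPL28 at -1.03 at 140 min and the member median at -1.03 at 120 min.

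By limma's interaction test, 4 named genes changed differently in peroxide II and menadione II. The difference was 2.31 for RPP2B, 4.01 for RLP24 and 2.74 for SQT1 after 90 min, and 2.20 for MAF1 at 51 to 90 min. Of these, RPP2B alone is a member. Passing this test was itself a reason to name a gene, so the count follows from the selection. Among all 5519 genes tested after 90 min, the difference was higher for 50 and lower for 10. At 51 to 90 min it was higher for 6 and lower for 2 of 5517 genes.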

How the results depend on the processing

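Counts are of members unless pairs are named, with the reported value first. Causes were not tested. Except for single probes, the share of all genes was not recorded under the alternatives. A count may therefore have moved together with the calls over all genes. With array quality weights, peroxide II went from 1 to 4 lower at 22 to 50 min and from 11 to 49 higher on return, menadione I from 5 to 15 at 51 to 90 min, and the oxidant difference from 0 to 1 and late from 1 to 4; pairs went from 3 to 5 and, on return, 3 to 7 in peroxide I, 0 to 4 on return in peroxide II, 0 to 1 in menadione I and 1 to 0 in menadione II. With the windows fitted alone, peroxide II gave 0 at 22 to 50 min and 26 on return (3 pairs), menadione II 1, late 2 and 0 pairs, and menadione I 0 late. With arrays scaled to the same spread, menadione I gave 3, menadione II 6, late 5 and 0 pairs, peroxide II 1 late, the oxidant difference 1, and peroxide I 1 pair on return. Without centring, menadione I gave 8, menadione II 25 late (1 pair), peroxide II 4 at 22 to 50 min and 34 on return, and the late oxidant difference 11. With a first window of 0 to 14 min, menadione I gave 0 and late 0, the late oxidant difference 0 and peroxide I 1 pair. With scan day as a covariate, peroxide II gave 16 lower and 1 pair, and the late oxidant difference 0; within the first scan day, it gave 16 and 1 pair, and 2 and 1 pair at 22 to 50 min. Medians over probes gave 2 there, and each probe alone gave 2 in menadione I. In peroxide I the first repeats alone gave 5 pairs and leaving out 20 and 63 min gave 1. Leaving out 1 array at a time gave 67 to 74 lower in peroxide I at 51 to 90 min and 65 to 73 higher on return, 29 to 40 lower in peroxide II (22 to 50 min, 0 to 10; return, 3 to 14), 0 to 8 in menadione I (late, 0 to 3), 9 to 19 in menadione II (late, 1 to 10), and 0 to 3 in peroxide I at 22 to 50 min. The oxidant difference gave 0 to 2, 0 to 1 and late 0 to 1, and pairs 1 to 5 in peroxide I (return, 2 to 5), 2 to 3 in peroxide II and 0 to 2 in menadione II. The median change kept its sign at 51 to 90 min in all 4 courses (menadione I, 22 to 50 min: -0.24 to 0.34; peroxide I, 22 to 50 min: -0.68 to -0.07). Of the single genes, RPL22B in menadione II was at -0.068 with medians over probes; RPL28 in menadione II was at 0.081 with scaling and between -0.253 and 0.047 when arrays were left out; RPL43B in menadione I was between -0.24 and 0.72. None of these passed a test. No paired analysis was possible because equal numbers in the labels mark times of different cultures, each grown and sampled once, and not repeats of a shared culture. Few arrays per window limit what could be called.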
